A study of Mus musculus with 21 samples.

Results

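A set of 685 genomic regions carried an ATAC peak in endothelial cells marked with Cdh5-CreERT2 but overlapped no peak called in endothelial cells marked with Tie2-Cre, both from mouse heart ventricles at E12.5. Peaks of 6 Cdh5-CreERT2 libraries, 3 from Gata4 ko and 3 from Gata4 het embryos, were joined into 128146 regions, an overlap of 1 bp being enough. Of these, 58286 carried a peak in 2 or 3 of the 3 ko lists and in 2 or 3 of the 3 het lists. The 685 members are those among them that overlapped no peak in either of 2 Tie2-Cre lists, 1.18% of the reproducible regions. A further 56259 (96.5%) overlapped a peak in both Tie2-Cre lists and are called shared open regions here, and 1342 (2.30%) overlapped a peak in 1 of the 2. Tie2-Cre-only regions, 20757 in number, had a peak in both Tie2-Cre lists and in none of the 6. The members were selected on the presence and absence of called peaks, so those values are given as a description without a test. The label "absent from Tie2-Cre cells" holds only in the sense that no peak was called there, because signal below the calling limit was not analysed here.

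ATAC marks DNA that a transposase can reach, which in most cells means active promoters and enhancers. Promoter regions tend to be open in many cell types, while enhancers lie mostly in introns or between genes and differ more between cell types. Cdh5 encodes VE-cadherin, the adhesion molecule of endothelial junctions, and Tek encodes the angiopoietin receptor TIE2. A Tie2-Cre transgene acts constitutively from early development and is also active in blood cells, whereas Cdh5-CreERT2 is active after tamoxifen. GATA4 is a zinc-finger transcription factor of heart muscle, endocardium and the valve-forming cushions.

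The Gata4 ko cells and the Gata4 het cells came from embryos of dams given 1 mg of tamoxifen by gavage at E9.5 to activate the Cdh5(PAC)-CreERT2 transgene. Cells that had turned on the Rosa26 mTmG reporter were sorted, 20000 per library, after dissociation with a Miltenyi kit. The 3 libraries of each genotype are numbered 2, 3 and 4. Both genotypes thus share the driver, tamoxifen and reporter, and no wild-type Cdh5-CreERT2 group was analysed here. The Tie2-Cre cells came from Rosa26fsTrap;Tie2Cre embryos without tamoxifen in their labels, 40000 sorted cells per library, dissociated with a Cellutron kit, in 2 libraries numbered 2 and 3. Driver, reporter, tamoxifen, Gata4 genotype, cell number and kit therefore differ together between the 2 sets of lists and cannot be told apart. RNA was counted in endothelial cells (EC) sorted with Tie2-Cre, in 2 libraries made from 60000 cells each, and in 3 cardiomyocyte (CM) libraries, so the RNA is not from the cells in which the members were open. Deletion of Gata4 in the ko cells could not be checked, because no RNA of those cells was analysed here. GATA4 occupancy was measured by bioChIP, the pulldown of biotinylated GATA4 with streptavidin, from 15 to 20 ventricles per library. Biotinylation was activated by Tie2-Cre in 3 libraries and by Tnnt2-Cre, which acts in cardiomyocytes, in the other 3. Separate litters or cultures are not stated for the replicates, and p-values measure only the spread between these samples, which may be technical.

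Only 10 members (1.46%) reached into the 250 bases before a RefSeq transcription start (GRCm38.p6), against 11320 shared open regions (20.1%). Shown here are the 5 of these promoters of which a member covered at least 200 bases, since they are the members whose sequence the reference tables hold. Capitals mark the letters AGATAA, the core read by GATA factors, GGAAGT, the core of ETS factors, or AACAAT, the core of SOX factors, on either strand. Each is written 5′ to 3′ along its gene and ends at the base before the start. Ccl3 encodes a chemokine of myeloid cells, Nlrp3 an inflammasome sensor, and Fyb an adapter protein of T cells, platelets and myeloid cells. Slc36a1os and Gm33172 are noncoding or predicted genes.
Ccl3 promoter, chr11:83649379-83649628, minus strand: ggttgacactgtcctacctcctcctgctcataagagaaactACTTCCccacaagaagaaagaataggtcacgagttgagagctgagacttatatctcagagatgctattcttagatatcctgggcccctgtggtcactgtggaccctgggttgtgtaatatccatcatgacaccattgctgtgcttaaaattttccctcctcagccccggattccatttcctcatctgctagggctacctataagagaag
Nlrp3 promoter, chr11:59541319-59541568, plus strand: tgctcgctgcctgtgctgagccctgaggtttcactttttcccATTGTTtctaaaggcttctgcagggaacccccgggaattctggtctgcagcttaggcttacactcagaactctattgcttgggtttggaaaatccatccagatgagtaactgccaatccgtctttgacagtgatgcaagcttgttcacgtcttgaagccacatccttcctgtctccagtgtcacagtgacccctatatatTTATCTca
Fyb promoter, chr15:6579597-6579846, plus strand: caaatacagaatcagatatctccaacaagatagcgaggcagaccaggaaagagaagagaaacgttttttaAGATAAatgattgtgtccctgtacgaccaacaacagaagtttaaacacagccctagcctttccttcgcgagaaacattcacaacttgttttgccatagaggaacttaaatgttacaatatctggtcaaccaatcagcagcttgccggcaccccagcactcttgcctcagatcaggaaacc
Slc36a1os promoter, chr11:55197683-55197932, minus strand: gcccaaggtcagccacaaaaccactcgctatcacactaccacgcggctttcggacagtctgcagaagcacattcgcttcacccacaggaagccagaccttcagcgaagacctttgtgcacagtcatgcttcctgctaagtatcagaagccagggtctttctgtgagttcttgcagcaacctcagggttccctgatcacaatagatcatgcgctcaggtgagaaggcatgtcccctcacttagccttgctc
Gm33172 promoter, chr13:110683628-110683877, plus strand: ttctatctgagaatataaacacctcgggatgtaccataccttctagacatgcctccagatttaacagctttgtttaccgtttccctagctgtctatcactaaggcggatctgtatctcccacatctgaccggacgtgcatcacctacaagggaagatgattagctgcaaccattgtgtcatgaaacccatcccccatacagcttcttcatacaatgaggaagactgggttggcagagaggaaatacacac

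The Ccl3, Nlrp3 and Gm33172 windows lay wholly inside a member. The member at Fyb covered 218 bases and that at Slc36a1os 230 bases. Among these 5 sequences, the ETS core stood in the Ccl3 promoter, the GATA core in those of Nlrp3 and Fyb, and the SOX core in that of Nlrp3. Over all 10 promoters touched by members, 3 held the GATA core, 2 the ETS core, 2 the SOX core and 2 the TEAD core CATTCC. Among 32851 RefSeq promoter windows of the same length, 9.99% held the GATA core, 19.7% the ETS core, 9.42% the SOX core and 12.6% the TEAD core. The E-box CANNTG was in 9 of the 10 and in 66.2% of all windows. The NKX2-5 core TNAAGTG was in 1 of the 10 and in 10.1% of all windows. None of the 10 held AP-1 (TGANTCA, 6.75% of all windows), MEF2 (0.508%) or CTCF (2.08%) motifs. With so few windows these counts describe the 10 promoters alone. Their GC content ran from 43.2% to 53.2% with a median of 46.2%, against 60.8% in promoters touched by shared open regions.

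Members were weak peaks, and they were found mostly in the longer lists. In ko, a peak was present at 651 members in replicate 2, 626 in replicate 3 and 194 in replicate 4. In het, it was present at 626 members in replicate 2, 609 in replicate 3 and 300 in replicate 4. The lists held 87496, 79263 and 55733 peaks in ko replicates 2, 3 and 4 and 90326, 82612 and 67201 in het replicates 2, 3 and 4, so replicate 4 was the shortest in both genotypes. Shared open regions were present in 81.2% to 98.1% of cases in every list, members in 28.3% to 95%.

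The most common pattern, at 299 members (43.6%), was a peak in replicates 2 and 3 of both genotypes and in neither replicate 4. Of the members, 458 (66.9%) had exactly 2 ko and 2 het peaks, 62 had 3 ko and 2 het, 126 had 2 ko and 3 het, and 39 (5.69%) had all 6. Among shared open regions 69.6% had all 6. The median fold over background, as the authors' peak caller gave it, was 4.33, 4.03 and 3.49 at members in ko replicates 2, 3 and 4, against 6.06, 6.02 and 5.07 at shared open regions. In het replicates 2, 3 and 4 it was 3.99, 4.52 and 3.97 at members, against 6.12, 6.33 and 5.56. Members were also narrower, with a median width of 500 bp (range 206 to 1250) against 716 bp.

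**Figure D1:**
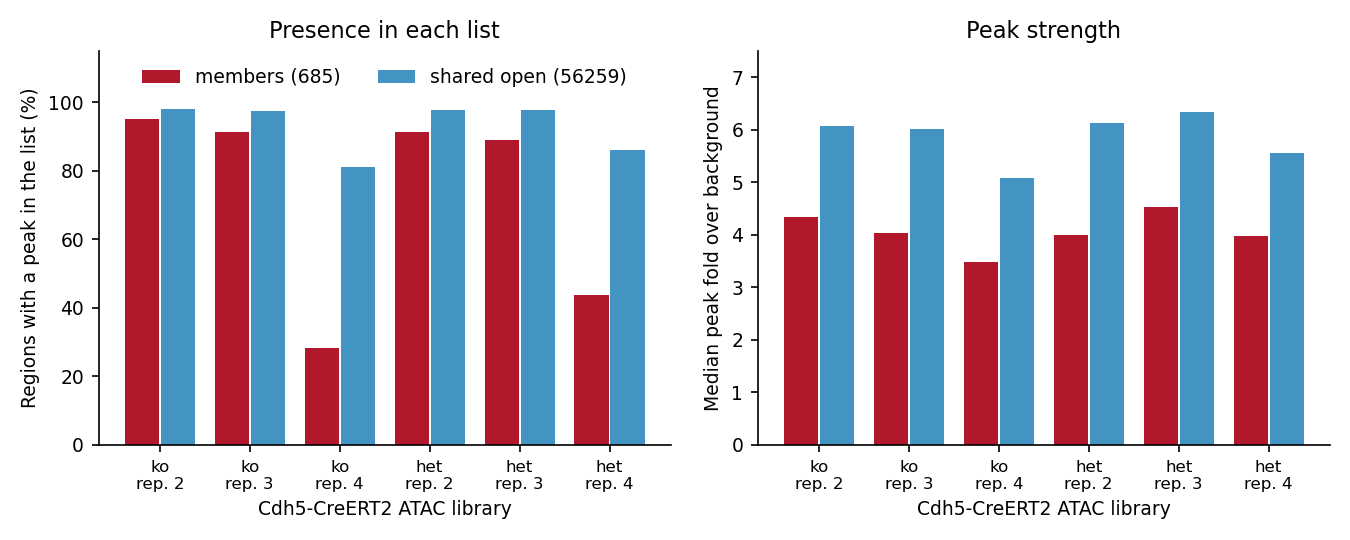
Left, percent of regions of each class with a peak in each Cdh5-CreERT2 list. Right, median peak fold over background, as deposited, in the same lists. Red bars are the 685 members and blue bars the 56259 shared open regions. The 2 replicate 4 lists hold the fewest members, and in all 6 lists the median member peak is lower than the median shared peak.

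On the inner edge of the rule, the 458 members with 2 ko and 2 het peaks had a median of their mean peak fold of 4.12. Just outside it, 1384 regions with no Tie2-Cre peak, 2 peaks in 1 genotype and 1 in the other stood at 3.82. The 1342 regions that failed only because 1 Tie2-Cre list had a peak stood at 4.29. The groups on both sides of the rule thus overlapped in strength. Peaks in the Tie2-Cre lists began at a −log10 q of 1.52 in replicate 2 and 1.31 in replicate 3, while the 6 Cdh5-CreERT2 lists began between 0.426 and 0.558, and the Tie2-Cre lists were longer, with 114599 and 130708 peaks. Raising the Cdh5-CreERT2 peaks to the higher of the 2 Tie2-Cre limits left 557 members. A −log10 q of at least 5 in all 8 lists left 45.

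The number of members changed strongly when lists were left out or cut. Without Tie2-Cre replicate 3 the rule gave 1790 regions, and with all lists cut to the length of the shortest it gave 3234. Without ko replicate 2 or 3 it gave 136 and 161, and without het replicate 2 or 3 it gave 225 and 242. There the rule asked for a peak in both remaining lists of that genotype, stricter than 2 of 3, so part of the fall was built in. By the rule no member overlapped a Tie2-Cre peak, and the nearest such peak was a median of 6308 bp away. It was under 500 bp away for 53 members (7.74%), under 5 kb for 291 (42.5%) and at least 10 kb for 229 (33.4%). The gap of other genome positions was not measured.

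Members lay far from transcription starts. Only 14 (2.04%, exact 95% interval 1.12% to 3.41%) had their midpoint within 1 kb of a start, against 23.0% of shared open regions and 3.79% of Tie2-Cre-only regions. Introns held 282 members (41.2%), exons 20 (2.92%), and 369 (53.9%) lay between genes. Among shared open regions 35.8% lay in introns, 3.45% in exons and 37.8% between genes. For Tie2-Cre-only regions these shares were 43.8%, 5.67% and 46.7%. The median distance to a start was 39736 bp for members, 17991 bp for shared open regions and 19678 bp for Tie2-Cre-only regions. A start lay over 100 kb away from 155 members (22.6%). Members were scattered, with a median of 832199 bp to the next member and 64 of 685 with another within 50 kb. Chromosome 14 held 6.13% of members against 3.66% of shared open regions, and chromosome 11 held 4.53% against 7.10%. These differences in place were not tested, and they stood beside the differences in peak strength and width given above.

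**Figure D2:**
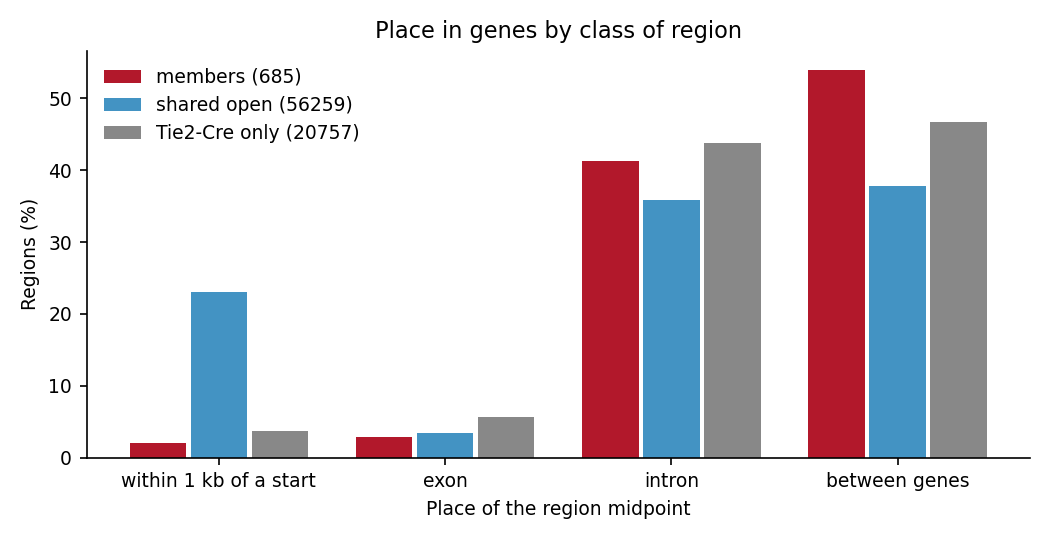
Percent of regions by the place of their midpoint, for members (red), shared open regions (blue) and Tie2-Cre-only regions (grey), with the number of regions in the legend. Members and Tie2-Cre-only regions are rare near starts, at 2.04% and 3.79%, where shared open regions reach 23.0%.

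The strongest members, by mean percentile of peak fold among the 39 with peaks in all 6 lists, were spread over 7 chromosomes. The first was a 655 bp region between genes at chr11:23217300-23217954 (mm10), 38414 bp from the start of Xpo1, the main nuclear export receptor. Its peak fold was 4.76, 7.63 and 5.71 in ko replicates 2, 3 and 4 and 8.78, 8.28 and 6.46 in het replicates 2, 3 and 4. The next, at chr4:138652630-138653507, lay 29077 bp from the start of Vwa5b1, with 5.96, 5.93 and 3.49 in ko and 7.59, 8.28 and 6.46 in het. The third, at chr14:110623533-110624091, was 131337 bp from the nearest start, that of Slitrk6, a neuronal transmembrane protein. The fifth lay in an intron of Prex2, which encodes an exchange factor for the GTPase RAC, 53797 bp from its start.

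The other 6 of the 10 were nearest to Gm1653, Fhitos, Mir6390, Prcp, Papss1 and Lmbr1, all with starts over 50 kb away. The region at Lmbr1 lay in an intron of that gene and overlapped GATA4 peaks in 2 of 3 Tnnt2-Cre libraries and in none of the Tie2-Cre libraries. The region near Papss1, which encodes a synthase of the sulfate donor PAPS, overlapped 1 Tnnt2-Cre list. The other 8 overlapped no GATA4 peak. Within these 10, peak fold ran from 3.17 to 8.90.

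To ask whether members lay near genes used by endothelial cells, each was given to the nearest start within 50 kb. This placed 385 members (56.2%) at 378 genes and left 300 without a gene. In RNA, 260 of the 378 genes were expressed well enough to be tested and 118 were not. Of the 260, 112 (43.1%) were higher in EC than in CM and 100 (38.5%) were lower (edgeR quasi-likelihood test, Benjamini-Hochberg adjusted p under 0.05). Among all 14851 genes tested, 37.5% were higher and 40.2% lower. At nearest genes of shared open regions 39.0% were higher and 39.5% lower, and at those of Tie2-Cre-only regions 43.8% and 36.3%. The members' nearest genes were thus near the background in both directions. At least 2-fold differences were seen at 60 genes upward (23.1%) and 56 downward (21.5%), against 22.2% and 22.6% of all genes. The median log2 fold change was 0.02, against -0.06 over all genes. In bulk RNA, fewer cells of a type and less RNA per cell cannot be told apart. Whether the EC and CM RNA libraries shared a preparation or run was not checked. Any such difference would coincide with cell type.

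**Figure D3:**
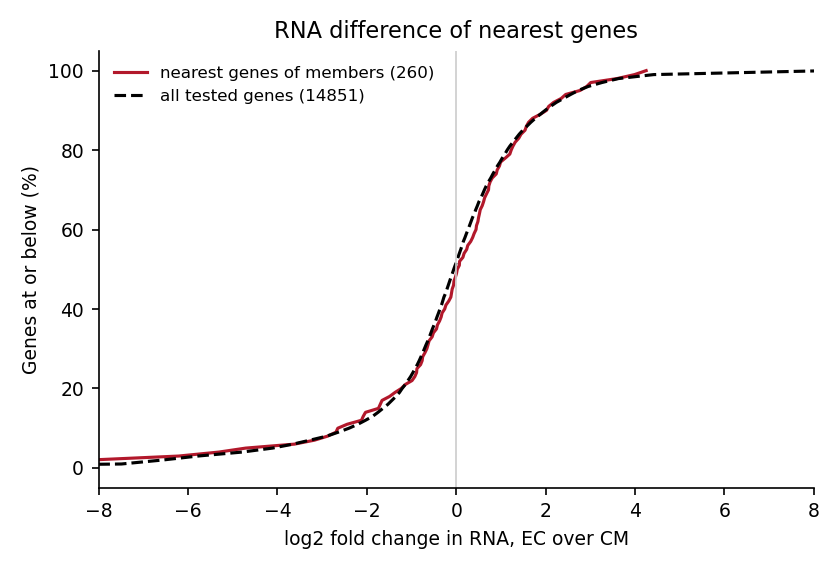
Cumulative percent of genes by log2 fold change in RNA of EC over CM, for the 260 tested nearest genes of members (red line) and all 14851 tested genes (black dashes). The lines run close together, with medians of 0.02 and -0.06.

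On the per-length scale of RPKM, nearest genes had a median level of 1.77 in EC and 2.67 in CM, and 200 of 378 (52.9%) exceeded 1 RPKM in EC. Nearest genes of shared open regions had medians of 3.11 in EC and 2.96 in CM. No read was counted for 82 of the 378 genes in EC, and for 46 in EC or CM. By place, genes near intronic members were higher in EC in 51 of 122 cases and lower in 48, and genes near intergenic members in 55 and 47 of 121. The host genes of intronic members, whatever the distance to their start, were tested in 233 cases, of which 105 (45.1%) were higher in EC and 86 (36.9%) lower. Hosts of intronic shared open regions gave 43.6% and 36.7%.

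Among nearest genes higher in EC, the greatest difference was at Epas1, which encodes the hypoxia-responsive factor HIF-2α. Epas1 had 259 and 282 CPM (counts scaled to a common library size) in EC, against 13.4, 15.8 and 13.2 CPM in CM. All EC libraries were above all CM libraries, and the log2 fold change was 4.25 with an SE of 0.09 (edgeR, adjusted p = 4.61e-11). Its member, at chr17:86705194-86705593, lay between genes, 48470 bp from the start, with 2 ko and 2 het peaks. A second member, 90134 bp from the Epas1 start, had no other start nearer.

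Stc1, which encodes a secreted glycoprotein, had 99.6 and 104 CPM in EC, against 10.9, 9.93 and 9.02 CPM in CM, which is 3.36 on the log2 scale with an SE of 0.10 (edgeR, adjusted p = 2.02e-10). Adgrf5, an adhesion G protein-coupled receptor, had 398 and 378 CPM in EC, against 45.4, 51.8 and 52.0 in CM, and its member lay in one of its introns. The transcript 9430020K01Rik had 311 and 327 CPM in EC, against 37.0, 40.2 and 44.4 in CM. At each of these genes the EC libraries stood above every CM library. The members at these genes overlapped no GATA4 peak.

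Of the listed endothelial and signalling genes, Cd34, a sialomucin of vessels and blood progenitors, had 315 and 320 CPM in EC, against 78.6, 81.0 and 73.7 CPM in CM. Its member fell in an exon, 17114 bp from the start. Lmo2, a bridging factor for GATA and TAL1 complexes, had 35.4 and 38.2 CPM in EC, against 8.87, 9.95 and 9.87 CPM in CM, with a member 12720 bp away. Tgfbr2, the type II TGF-beta receptor, had 161 and 158 CPM in EC, against 34.0, 33.5 and 34.1 CPM in CM, and its member lay in an intron. All 3 were higher in EC, by 2.03, 1.94 and 2.24 on the log2 scale. The type I receptor Tgfbr1 had 149 and 148 CPM in EC, against 148, 145 and 132 in CM, and its difference of 0.07 did not pass the test (adjusted p = 0.403, edgeR). Its member, 22406 bp from the start, had peaks in all 6 lists and stood 15170 bp from the nearest Tie2-Cre peak.

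**Figure D4:**
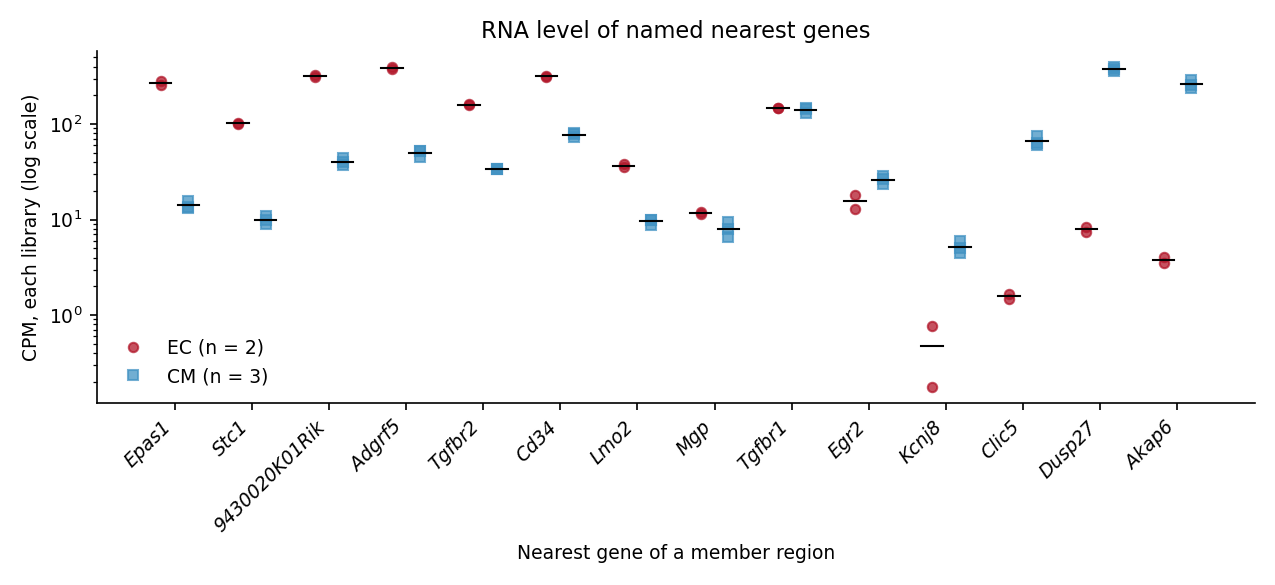
CPM in each RNA library (log axis) of named genes nearest to a member, with EC as red circles (n = 2) and CM as blue squares (n = 3) and a black bar at each mean. From Epas1 to Mgp every EC value exceeds every CM value, and from Egr2 to Akap6 every CM value exceeds every EC value.

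Other nearest genes were higher in CM. Akap6, which anchors protein kinase A at the nuclear envelope of muscle cells, had 3.47 and 4.03 CPM in EC, against 255, 241 and 291 CPM in CM, which is -6.14 on the log2 scale with an SE of 0.13 (edgeR, adjusted p = 3.73e-11). Its member lay in an Akap6 intron, 12819 bp from the start. Dusp27, a pseudophosphatase of striated muscle, had 8.33 and 7.47 CPM in EC, against 360, 399 and 376 CPM in CM, also with an intronic member. Clic5, a chloride intracellular channel protein, had 1.49 and 1.68 CPM in EC, against 60.1, 63.9 and 75.3 in CM, again with an intronic member. In these 3 genes the EC libraries lay far below all CM libraries.

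Kbtbd12, a kelch-repeat gene, had 2 reads over both EC libraries and 4081 over the CM libraries. On the CPM scale it was 743-fold lower in EC, with a 95% counting interval of 206 to 6140. Its member, 12760 bp from the start, overlapped GATA4 peaks in 1 Tie2-Cre and 2 Tnnt2-Cre libraries. The noncoding gene 2900060B14Rik had no read in EC and 126, 153 and 129 CPM in CM, at least 984-fold lower in EC with a floor of 3 reads per library. Its member lay in an intron of the neighbouring Clasp1. The part of library preparation in this difference was not tested.

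Members within 250 bp of a start numbered 3 and stood at Cxcr5, Ccl3 and Mpp4. Cxcr5 is the receptor for a B cell chemokine, and Mpp4 encodes a scaffold protein of photoreceptors. The other members within 1 kb stood at Cd79b, a subunit of the B cell receptor, and at Fyb, Frem3, Plac1, Fabp2, Olfr433, Rhox11, Gm6150, Slc36a1os, 4930452A19Rik and A330093E20Rik. None of the 14 overlapped a GATA4 peak, and none had peaks in all 6 lists. Of the 14 genes, 6 were tested, with 4 higher and 1 lower in EC. These are too few to read against the 37.5% higher and 40.2% lower among all genes tested. Ccl3 had 0.354 and 0.317 CPM in EC, against 0, 0.0235 and 0.0224 CPM in CM. Fyb had 2.52 and 3.35 CPM in EC, against 0.271, 0.235 and 0.0898 CPM in CM. Cd79b had 0.496 and 0.317 CPM in EC, against 0.0416, 0.0471 and 0 in CM. The levels were low, but in each of these 3 genes both EC libraries exceeded all CM libraries. Plac1 did so too, with 5.53 and 4.62 CPM in EC, against 1.33, 1.6 and 1.77 in CM. Frem3 went the other way, with 0.213 and 0 CPM in EC, against 3.02, 2.54 and 3.86 in CM.

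That Ccl3, Fyb, Cd79b, Cxcr5 and Nlrp3 are genes of leukocytes was noticed after their values were seen, and the group was not tested. Cxcr5 had 3 and 5 reads in EC, against 0, 0 and 1 in CM. Nlrp3 had 2 and 1 reads in EC, against 0, 3 and 2 in CM, and neither gene was tested. The Nlrp3 window belongs to a RefSeq start other than the one used for place. Its member is therefore not among those within 1 kb of a start. Of 14 listed macrophage and leukocyte markers, 0 were the nearest gene of a member, too few genes to read against the 1.57% of all genes that were. A member lay within 50 kb of 1 of the 14, Lyz2, with Lyz1 nearer. In EC RNA that list summed to 25.2 and 24.2 CPM, against 72.3, 62.2 and 51.2 CPM in CM, where Lyz2 averaged 50.5 CPM. Of 12 tested, 9 were higher and 1 lower in EC, and none was at 0 in both EC libraries. Starts of 2, 3 and 2 of the 14 had a peak within 1 kb in ko replicates 2, 3 and 4, of 2, 4 and 2 in het, and of 4 and 5 in the Tie2-Cre lists. The part of other cells in the members was not tested.

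Marker genes of the labelled and of other cell types were read for peaks at their starts. A peak lay within 1 kb of the start of 28 of 29 endothelial markers in each of the 6 Cdh5-CreERT2 lists and of 29 of 29 in both Tie2-Cre lists. For 30 sarcomere genes it was 14, 8 and 6 in ko replicates 2, 3 and 4, 10, 12 and 8 in het, and 16 and 16 in Tie2-Cre. Of 16 fibroblast and mural markers, 15, 14 and 13 had one in ko and 15, 14 and 14 in het. Both Tie2-Cre lists had 16 of 16. Open starts set endothelial markers apart from the sarcomere genes but not from the fibroblast and mural markers. The counts thus cannot check the label by themselves. In RNA, the 29 endothelial markers summed to 8644 and 8499 CPM in EC, against 1612, 1593 and 1465 in CM. The 30 sarcomere genes summed to 1267 and 1256 CPM in EC, against 1.183e+05, 1.185e+05 and 1.278e+05 in CM. Both groups thus held RNA of the other's markers, and their purity was not tested. Over all 30 lists, 8 of 523 distinct genes (1.53%) were nearest to a member, against 378 of all 24140 genes placed (1.57%). At that share a list of 30 genes or fewer can hold none by size alone, so no statement on single lists is drawn from these counts.

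Besides those named above, the 8 included Mgp, a matrix inhibitor of calcification, Kcnj8, a potassium channel subunit of mural cells, and Egr2, an immediate early transcription factor. Mgp had 11.4 and 12 CPM in EC, against 6.58, 7.95 and 9.54 in CM, higher by 0.54 on the log2 scale. Kcnj8 had 0.177 and 0.770 CPM in EC, against 5.02, 4.52 and 5.95 in CM, lower by a log2 fold change of -3.53. Egr2 had 13 and 18.2 CPM in EC, against 26.5, 28.5 and 23.7 in CM, with a log2 fold change of -0.76. The Egr2 member had peaks in all 6 lists and touched the promoter window of the predicted gene Gm40679. Listed genes with a member within 50 kb that was placed at another gene were Tie1, Ecscr, Acta2, Klf6, Agrn, Ccnb2, Lyz2 and 4 beta-globin genes.

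The globin region lay at chr7:103808989-103809739, 4559 bp from the start that Hbb-bt and Hbb-b2 share, 1633 bp from the nearest Tie2-Cre peak and with 2 ko and 2 het peaks. Hbb-bt and Hbb-bs are near-identical beta-globin copies, so reads counted on either are uncertain. The embryonic Hbb-y averaged 12 ± 0.373 CPM in EC (SD, n = 2) and 2160 ± 909 CPM in CM (SD, n = 3). No member lay within 50 kb of Cdh5, Tek, Gata4 or Gt(ROSA)26Sor, the loci of the drivers, the deleted gene and the reporter. The nearest was 457140 bp from the Gata4 start.

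Few genes had several members nearby. Of 24140 genes placed, 686 had 1 member within 50 kb of their start, 16 had 2, and 1, Minos1, had 3. Minos1 encodes a subunit of the mitochondrial contact site complex and had 80.4 and 104 CPM in EC, against 97.5, 106 and 105 in CM, groups that overlapped. The leptin receptor locus had 2 members within reach of both Lepr and Leprot. Leprot averaged 120 CPM in EC and 45.4 CPM in CM, while Lepr averaged 2.87 and 2.84. Iqgap1, a scaffold of the actin cytoskeleton, had 2 members and averaged 296 CPM in EC and 128 CPM in CM.

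GATA4 peaks were rare at members. The rule had not used the GATA4 lists, but it used ATAC peaks of Tie2-Cre cells, the lineage of the Tie2-Cre GATA4 libraries. In Tie2-Cre libraries 1, 2 and 3, 20, 1 and 41 of the 685 members (2.92%, 0.146% and 5.99%) overlapped a GATA4 peak. In Tnnt2-Cre libraries 1, 2 and 3 it was 15, 1 and 20 (2.19%, 0.146% and 2.92%). The second list of each lineage was far shorter than the others, with 2734 peaks for Tie2-Cre and 3603 for Tnnt2-Cre, against 17682 to 30447 in the rest. The ranges of the lineages overlapped. The mean was 3.02% ± 2.92 in Tie2-Cre and 1.75% ± 1.44 in Tnnt2-Cre (SD, n = 3 each), a difference of 1.27 percentage points (exact two-sided permutation p = 0.7, where 0.1 is the smallest possible). Without Tie2-Cre replicate 3 the difference was -0.219.

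Members were overlapped less often than shared open regions in 6 of 6 libraries. The mean over libraries was 2.38% ± 2.17 for members and 17.3% ± 11.3 for shared open regions (SD, n = 6), a difference of -14.9 percentage points (exact two-sided sign-flip permutation p = 0.031, the smallest possible with 6 libraries). Members were also weaker and narrower than shared open regions, as given above. Against the 7591 shared open regions no stronger than the members' median, which averaged 9.80% ± 6.48, the difference was -7.42 points (exact p = 0.031). Away from starts, over 1 kb, it was -13.5 points (exact p = 0.031). With all 6 GATA4 lists cut to the length of the shortest, it was -3.2 points (exact p = 0.031). Shared open regions were chosen for Tie2-Cre ATAC peaks and members for having none. These differences are therefore not independent of how the regions were chosen. The part of peak width was not tested.

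Tie2-Cre-only regions, also chosen by their Tie2-Cre ATAC peaks, gave another contrast. They were overlapped at 2.23%, 0.173% and 3.58% in Tie2-Cre libraries 1, 2 and 3 and at 5.55%, 1.13% and 7.02% in Tnnt2-Cre libraries 1, 2 and 3. Member minus Tie2-Cre-only overlap averaged 1.02 ± 1.25 points in Tie2-Cre and -2.81 ± 1.63 points in Tnnt2-Cre libraries (SD, n = 3 each). These differed by 3.84 points, with an exact two-sided permutation p of 0.1, the smallest that 3 against 3 allows.

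**Figure D5:**
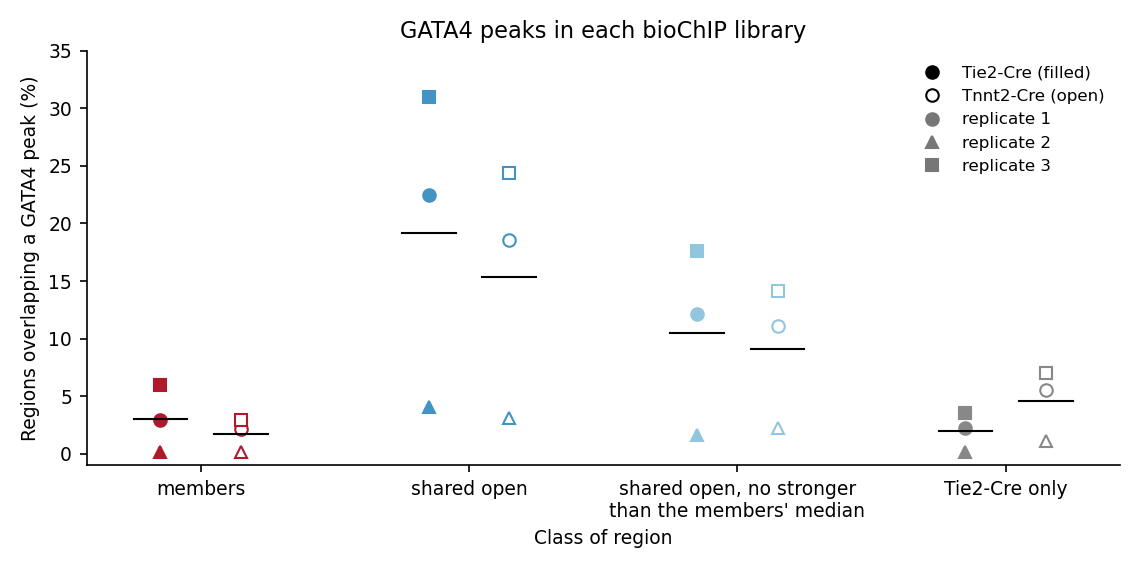
Percent of regions that overlap a GATA4 peak in each bioChIP library, by class of region. Filled symbols are Tie2-Cre and open symbols Tnnt2-Cre libraries, shapes are replicates 1 to 3, and black bars are means. Members reach 5.99% at most, in Tie2-Cre replicate 3, and shared open regions 31.0%.

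In all, 626 members (91.4%) overlapped no GATA4 peak, 36 overlapped Tie2-Cre peaks alone, 14 Tnnt2-Cre peaks alone and 9 both. At 16 members, 2 or 3 of the 3 Tie2-Cre libraries had a GATA4 peak. The member in an intron of 4930558C23Rik, at chr3:95394396-95394830, was in all 3 Tie2-Cre and in 2 Tnnt2-Cre lists. The member near Gulp1, an adapter for the engulfment of dead cells, lay 7137 bp from its start and was in 2 Tie2-Cre lists and in 0 Tnnt2-Cre lists. Gulp1 averaged 68.4 ± 3.74 CPM in EC and 34.6 ± 4.24 in CM (SD, n = 2 and 3), which is 0.98 on the log2 scale (edgeR, adjusted p = 6.56e-06). The member in an intron of Col8a1, which encodes a short-chain collagen of vessel walls, was likewise in 2 Tie2-Cre lists, and Col8a1 averaged 0.928 ± 0.160 CPM in EC and 8.88 ± 1.31 in CM. Among members with any Tie2-Cre GATA4 peak, 20 had a gene within 50 kb, of which 14 were tested, 4 being higher and 10 lower in EC. These were 28.6% and 71.4% of the 14, against 37.5% and 40.2% of all genes tested. Among members with any Tnnt2-Cre GATA4 peak, 7 nearest genes were tested, 3 being higher and 2 lower in EC. Both counts are small and were not tested.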

How the data were processed

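ATAC and GATA4 bioChIP peaks were deposited as 1 list per library on mm10, each peak with a fold (ratio) over background and −log10 p and −log10 q values, per the deposited files. Peak names of the GATA4 lists carry MACS2, and those of the Cdh5-CreERT2 lists a removal of mitochondrial reads and duplicates. The callers' settings and the read depth of these libraries are not given in the sources used here, and a missing peak can reflect either. RNA was deposited by the authors as counts of reads over gene exons from featureCounts 1.6.3, per the file headers. They held 27660790 and 21682362 counted reads in EC and 48393473, 42948614 and 45522886 in CM. The submitters' processing notes name deepTools 3.3.1, MACS2 2.2.4, Bowtie2 2.2.9, Bowtie 1.1.1 and STAR 2.7.3a without their roles. ATAC samples of cardiomyocytes (2) were left out, since the rule does not use them.

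Peaks were merged at 1 bp with Python 3.11.15, numpy 2.4.6 and pandas 2.3.3. Each peak's fold was taken as given or as a percentile of its own list. For the edge of the rule and the strongest members, these were averaged over the lists where a region had a peak. A region's place and nearest start were read from the exons of the count table for 24140 genes. Left out were 144 genes on several chromosomes or strands and 137 whose copies lie apart. For 14851 genes past filterByExpr, counts were scaled by TMM and tested with edgeR 4.0.16 under R 4.3.3, by its robust quasi-likelihood test with Benjamini-Hochberg adjustment and a threshold of 0.05. DESeq2 1.42.0 was an alternative. The SE of a log2 fold change was taken as its size over the square root of F. Replicates differed by more than sampling noise, with a chi-square per degree of freedom of 7.84 in EC and 13.4 to 33.9 in CM. Overlap with GATA4 peaks was tested with exact permutations over libraries. The code was tested on simulated data. Figures were drawn with matplotlib 3.10.9. Intervals cover counting error only.

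Named were the 10 strongest regions among those in 6 of 6 lists, the 5 greatest RNA differences each way among nearest genes whose higher group reached 20 CPM in each library, up to 3 genes per list of 30 gene lists, the 5 genes with the most members within 50 kb (ties in alphabetical order), the driver, deleted and reporter loci, and up to 5 members within 250 bp of a start. A gene this rule gave among the greatest RNA differences is not reported here. Other genes were named after their values were seen, among them those within 1 kb of a start, those at promoter windows, Iqgap1, the leptin receptor genes and members in at least 2 GATA4 lists. The members and the gene lists were chosen with earlier results of these data known. RefSeq promoters (GRCm38.p6, the primary assembly of mm10) were matched by position, and symbols matched RefSeq for 95% of 24421 genes. Motif counts over all members had been planned but were left out, as no genome sequence was used here.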

Additional observations from a re-analysis of the deposited data

How the results depend on the processing

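The number of members changed with the settings on peak strength, overlap and list length. Against 685 as reported, it was 45 with a −log10 q of at least 5, 3234 with equal list length, 39 with 3 of 3 ko and 3 of 3 het lists and 2221 where a Tie2-Cre peak had to cover 0.5 of a region to remove it. It was 632 with no Tie2-Cre peak within 500 bp. With Cdh5-CreERT2 peaks at or above the lowest q of both Tie2-Cre lists it was 557, an alternative chosen after seeing the data. Leaving out single libraries gave 136 to 1790, where a genotype left with 2 lists had to have a peak in both. In the same order of the first 4 settings, 16, 1358, 10 and 803 nearest genes were tested, against 260 as reported. Those higher in EC numbered 7, 585, 5 and 321 (43.8%, 43.1%, 50% and 40%), against 112 (43.1%). Lower ones numbered 9, 496, 3 and 305 (56.2%, 36.5%, 30% and 38%), against 100 (38.5%). Within 20 kb they were 61 (44.9%) and 54 (39.7%) of 136. Leaving out single ATAC libraries gave 20 to 277 higher (38% to 49%) and 19 to 252 lower (35.7% to 43%). Among all genes tested, 37.5% were higher and 40.2% lower. The counts followed the number of regions by construction. The percent within 1 kb of a start was 0 with a −log10 q of at least 5 and with 3 of 3 lists, and 0.735 to 2.48 without single libraries.

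EC and CM replicate numbers do not pair the samples: deviations of same-numbered libraries correlated at -0.01 and 0.00 over genes. With a replicate block, 5248 genes were higher and 5738 lower in EC over all genes. Among the 260 nearest genes tested it was 106 (40.8%) and 97 (37.3%). GATA4 replicate numbers gave correlations of 0.0332, -0.269 and -0.194, and with the replicate block the lineage difference was 1.27 points (exact sign-flip p = 0.5). Without Tie2-Cre replicate 3 that difference turned to -0.219, and over all left-out libraries it ran from -0.219 to 2.70. With GATA4 lists of equal length it was 0, and where a GATA4 peak had to cover 0.5 of a region it was 0.0487. The member minus shared open difference was -3.2 with GATA4 lists of equal length, against -14.9 as reported. It ran from -17.3 to -12.9 when a library was left out, at an exact permutation p of 0.0625, the smallest that 5 libraries allow. Without single libraries 5169 to 5432 genes were higher in EC and 5452 to 5914 lower.

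Among 34 named genes with a fit, 285 of 300 alternative values kept direction and call. Those that turned were not called to begin with: without single libraries, log2 fold changes ran from -6.45 to 0.20 for Slitrk6, from -0.37 to 0.00544 for Minos1, from -2.56 to 0.27 for Atp1a4 and from -2.38 to 0.83 for Mpp4 (0.09 without CM replicate 2), the lower and upper ends coming from the 2 EC libraries. With 1 EC library left out, Slitrk6, Minos1 and Mpp4 passed the test at the lower of these values. The calls of Gm1653, Mgp and Gt(ROSA)26Sor were lost under some settings, and the cause was not tested. Depth of the ATAC and GATA4 libraries is unknown and limits what a missing peak shows.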
